A study of Hyphopichia burtonii and Hyphopichia pseudoburtonii with 16 samples.

Results

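NHA1, HAK1 and PMA1 are annotated in both Hyphopichia species as an antiporter of sodium and protons, a high-affinity potassium transporter and a plasma membrane ATPase. They were taken, together with the potassium transporter TRK1, as every row whose gene name was one of these 4 names, ignoring case. The rule found 6 of the 12015 genes of the series, 3 of 5900 in Hyphopichia pseudoburtonii and 3 of 6115 in Hyphopichia burtonii. NHA1, HAK1 and PMA1 each had 1 copy per species, and TRK1 had 0 rows in either table.

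Wild-type H. pseudoburtonii (strain KJS14) and wild-type H. burtonii (strain KJJ43), yeasts isolated from the fermentation starter Nuruk, were compared by RNA-seq over a salt time course. Cultures grew in YPD, a rich medium, to an OD600 of 2.0 after a start at 0.6, and YPD containing 2 M NaCl was then added at equal volume, for a final 1 M. Each species was harvested before the addition (0 min) and after 5, 15 and 30 min, with 2 libraries per species and time and 16 in all. The addition brought new medium together with the salt, and there was no parallel course with medium alone, so effects of the 2 cannot be told apart.

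Yeast cells keep cytosolic potassium high and sodium low. The proton ATPase Pma1 pumps protons out and builds the electrochemical gradient that drives secondary transport across the plasma membrane. In Saccharomyces cerevisiae, Nha1 uses that gradient to export sodium and potassium in exchange for protons, while Trk1 and Trk2 take potassium up. Hak1, known from Schwanniomyces occidentalis and other yeasts but not present in S. cerevisiae, takes up potassium with high affinity when potassium is scarce.

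The 6 genes passed the filter on low values (1 FPKM or more in 2 or more of a species' 8 libraries). Their values are FPKM, fragments scaled to transcript length and to the mapped fragments of the library, so they are shares of a library and not amounts per cell. The files hold no read counts and depth as such is unknown. The lowest nonzero values gave an estimate of relative depth within a species, with the deepest library set to 1. In H. pseudoburtonii it was 0.974 and 1 at 0 min and 0.267 to 0.505 at the later times, and in H. burtonii 0.464 and 0.541 at 0 min and 0.599 to 1 later. Depth thus moved with time, in opposite directions in the 2 species, and its part in the changes was not tested. Log2 values of the 2 libraries of a time correlated across genes with r of 0.918 to 0.979 in H. pseudoburtonii and 0.955 to 0.989 in H. burtonii. The labels do not say if a pair of libraries came from different cultures, so the p-values measure the spread between these libraries, which may be technical.

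Changes are differences of mean log2(FPKM + 1) from limma, fitted per species, and a gene rose or fell where its p, adjusted by the Benjamini-Hochberg method over all tested genes, was under 0.05. In H. pseudoburtonii, 0 of the 3 members were called at 5 min against 0 min, 2 of 3 at 15 min and 2 of 3 at 30 min. Among all 5798 genes tested there, 8.73%, 17.7% and 35.4% were called in the same comparisons. In H. burtonii, 1 of 3 members was called at 5 min, 2 of 3 at 15 min and 2 of 3 at 30 min, against 22.3%, 29.7% and 48.1% of 6047 genes. With 3 genes per species these counts say little beside such shares, and the values below carry the description. Within a species, each comparison with 0 min uses the same pair of 0 min libraries.

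The median change of all tested genes was not 0. It was 0.12, 0.10 and 0.39 on the log2 scale at 5, 15 and 30 min in H. pseudoburtonii and 0.07, 0.39 and 0.56 in H. burtonii. Dividing each library by a median-ratio factor brought the 30 min medians to 0.01 and 0.07. It also brought the share of called genes that were higher at 30 min to 47.2% in H. pseudoburtonii, against 72.7% on the deposited scale, and to 48.3% in H. burtonii, against 76.9%. For this reason, main changes of the members are also set against that median. ACT1, the actin gene, was not called at 5, 15 or 30 min against 0 min in either species, with changes of -0.35 to -0.03 in H. pseudoburtonii and -0.40 to -0.21 in H. burtonii.

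**Figure D1:**
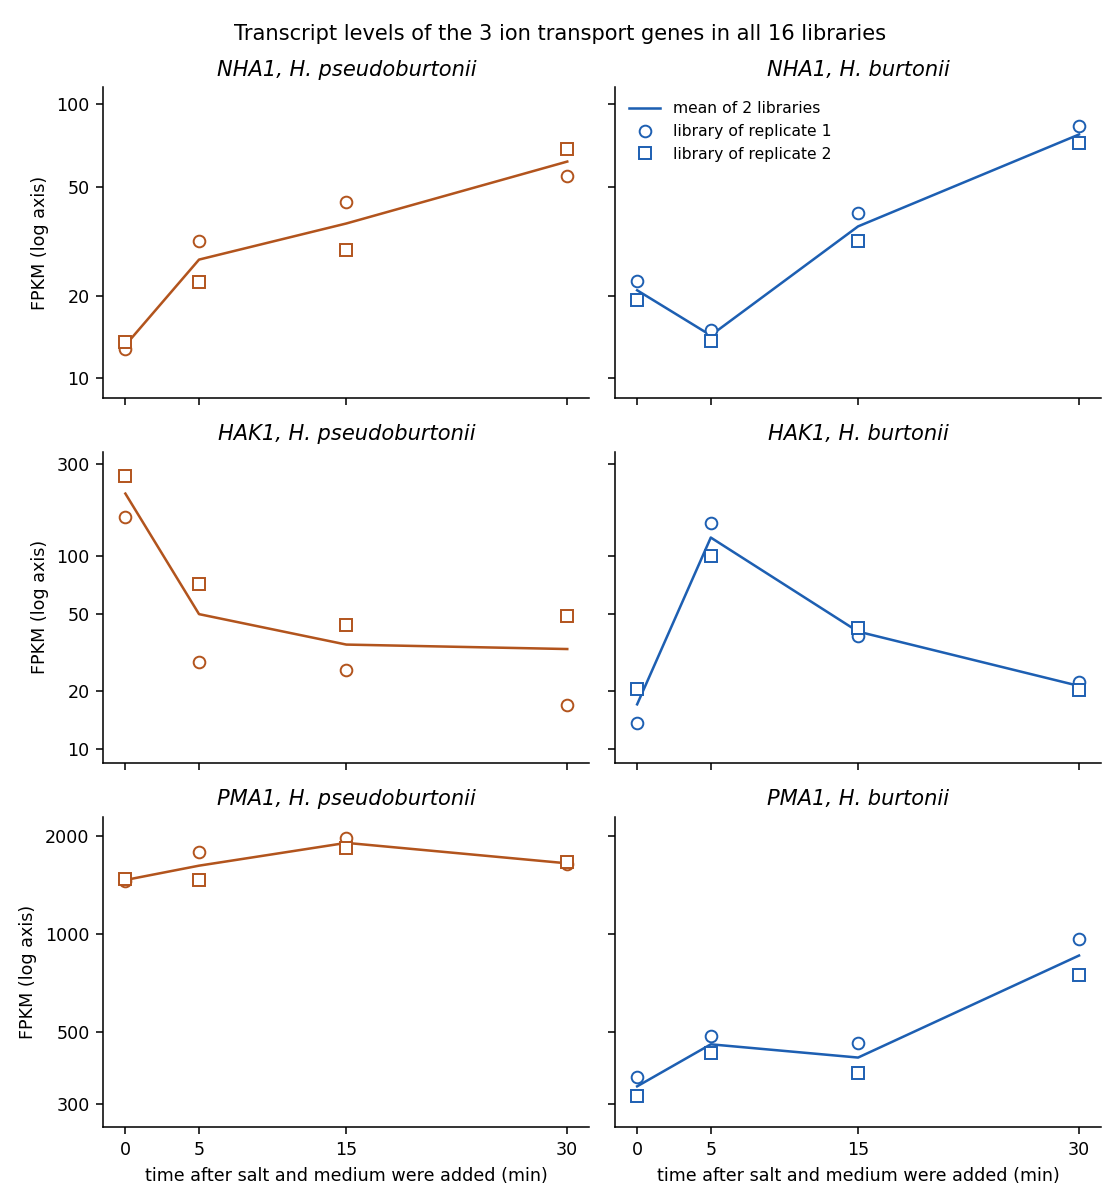
FPKM (log axis) of NHA1, HAK1 and PMA1 by minutes after the addition, with H. pseudoburtonii on the left and H. burtonii on the right. Open symbols are the 2 libraries of a time and lines join their means: NHA1 ends high in both species, HAK1 drops in H. pseudoburtonii and peaks at 5 min in H. burtonii, and PMA1 lies highest throughout.

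NHA1, the cation exporter, was higher at 30 min than at 0 min in both species, 4.67 times by the means in H. pseudoburtonii and 3.69 times in H. burtonii. It differed in the early phase, where H. pseudoburtonii libraries lay above their 0 min level at 5 min and H. burtonii libraries lay below theirs. In H. pseudoburtonii, NHA1 had 12.8 and 13.6 FPKM at 0 min, 31.8 and 22.4 at 5 min, 44.1 and 29.3 at 15 min, and 54.7 and 68.6 at 30 min. Both libraries of every later time were above both 0 min libraries, the 5 and 15 min libraries overlapped, and the 30 min libraries stood above the rest. In H. burtonii, NHA1 had 22.6 and 19.3 FPKM at 0 min, 15.0 and 13.7 at 5 min, 40.01 and 31.6 at 15 min, and 82.8 and 72.0 at 30 min. No 2 times overlapped there, and the lowest time was 5 min. Overlap of libraries is only described here and below. Full separation of 2 against 2 libraries has an exact two-sided permutation p of 0.333, and the share of all genes that separate was not counted.

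Against 0 min, the log2 change of NHA1 in H. pseudoburtonii was 0.96 (SE 0.30) at 5 min, with an adjusted p of 0.0966 in limma, and so was not called. NHA1 rose there by 1.38 (SE 0.30) at 15 min (adjusted p = 0.0212) and by 2.13 (SE 0.30) at 30 min (adjusted p = 0.00208). Relative to the median of all genes the 30 min change was 1.74, and it lay above that of 93.0% of genes. The 15 min call was lost without either 0 min library (1.34 and 1.42) and without replicate 1 of 15 min (1.09).

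In H. burtonii, the change of NHA1 was -0.51 (SE 0.21) at 5 min and not called (adjusted p = 0.118, limma). It rose by 0.74 (SE 0.21) at 15 min (adjusted p = 0.0356) and by 1.84 (SE 0.21) at 30 min (adjusted p = 0.000511). The 30 min change was 1.28 relative to the median of all genes and above that of 91.5% of them. The 15 min call held in 6 of 16 alternatives: it was lost without any 1 library (0.58 to 0.91), with median-ratio scaling (0.39) and with quantile scaling (0.28). The 30 min call held in 16 of 16 alternatives in each species.

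Between successive harvests, NHA1 in H. burtonii rose in both steps after 5 min. Its change was 1.25 (SE 0.21) for 15 against 5 min (adjusted p = 0.00929, limma) and 1.10 (SE 0.21) for 30 against 15 min (adjusted p = 0.0149), where 20.1% and 16.2% of all genes were called. Of the 3 members, 2 were called in each of these steps in H. burtonii. In H. pseudoburtonii the same steps of NHA1 gave 0.42 (adjusted p = 0.487) and 0.75 (adjusted p = 0.127), and 0 of 3 members were called, against 4.78% and 14.3% of all genes. In H. burtonii the first step was not called without either 5 min library or replicate 1 of 15 min (1.09 to 1.31), and the second without replicate 2 of 15 min or either 30 min library (0.93 to 1.20).

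Within a library, NHA1 began in the lower ranks in H. pseudoburtonii, above 23.1% of genes in each 0 min library, and reached the middle, above 50.6% and 58.0%, at 30 min. In H. burtonii it stood above 47.1% and 40.3% of genes at 0 min, 30.6% and 29.6% at 5 min, and 69.2% and 65.9% at 30 min. Sodium leaves yeast cells also through the Ena sodium ATPases, of which the files list 2 rows named ENA5 in H. pseudoburtonii and 4 in H. burtonii. Since reads of rows with the same name could be split between them if they are near copies, their FPKM were summed. In H. pseudoburtonii the sum was 32.6 and 32.3 at 0 min, 49.3 and 42.2 at 5 min, 87.0 and 72.5 at 15 min, and 408 and 443 at 30 min. In H. burtonii it was 57.4 and 61.9 at 0 min, 182 and 158 at 5 min, 773 and 826 at 15 min, and 1385 and 1045 at 30 min. NHA1 thus stood at 39.4% and 42.0% of the ENA5 sum at 0 min in H. pseudoburtonii, 64.4% and 53.1% at 5 min, 50.7% and 40.4% at 15 min, and 13.4% and 15.5% at 30 min. In H. burtonii the share was 39.4% and 31.2% at 0 min, 8.23% and 8.65% at 5 min, 5.17% and 3.83% at 15 min, and 5.97% and 6.89% at 30 min. In both species the exchanger thus stood at a smaller share of the sodium ATPases at 30 min than at 0 min, and in H. burtonii already at 5 min. The ENA5 rows of H. burtonii were unlike in level. At 30 min TBIG001731 had 0.32 and 0 FPKM, TBIG001730 had 641 and 417, and TBIG002789 had 555 and 493. FPKM is per length, and the rows summed were not of equal length: TBIG001730 was much shorter than TBIG001727 and TBIG002789. It had 38.1 and 38.6 FPKM at 0 min, the most of the H. burtonii rows, so the size of the shares in that species depends on it. These shares are descriptions and were not tested.

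HAK1, the potassium importer, changed in opposite directions in the 2 species. Its mean at 5 min was 0.238 times that of 0 min in H. pseudoburtonii and 7.31 times in H. burtonii. In H. pseudoburtonii, HAK1 had 159.5 and 260.7 FPKM at 0 min, 28.2 and 71.6 at 5 min, 25.5 and 43.9 at 15 min, and 16.9 and 48.9 at 30 min. Every later library was below both 0 min libraries, and the 3 later times overlapped. In H. burtonii, HAK1 had 13.6 and 20.5 FPKM at 0 min, 148.7 and 100.1 at 5 min, 38.6 and 42.5 at 15 min, and 22.2 and 20.2 at 30 min. The 5 min libraries were the highest, those of 15 min stood between, and those of 30 min overlapped with those of 0 min.

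HAK1 was also the member with the widest gap between libraries of a time, at every time in H. pseudoburtonii and at 0 and 5 min in H. burtonii. At 15 and 30 min in H. burtonii its gap was the narrowest of the 3, with 1.10 times at each. In H. pseudoburtonii the higher library had 1.63, 2.53, 1.72 and 2.90 times the FPKM of the lower at 0, 5, 15 and 30 min, and replicate 2 was the higher each time. Mean FPKM there were 210.1 ± 71.5 at 0 min, 49.9 ± 30.6 at 5 min, 34.7 ± 13.0 at 15 min and 32.9 ± 22.7 at 30 min (SD, n = 2). In H. burtonii the means were 17.0 ± 4.88 at 0 min, 124 ± 34.4 at 5 min, 40.5 ± 2.78 at 15 min and 21.2 ± 1.44 at 30 min (SD, n = 2).

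Against 0 min in H. pseudoburtonii, the log2 change of HAK1 at 5 min was -2.15 (SE 0.60) and missed the threshold in limma (adjusted p = 0.0682); with a pseudocount of 10 in place of 1 it passed it, at -1.94. HAK1 fell there by 2.57 (SE 0.60) at 15 min (adjusted p = 0.0249) and by 2.78 (SE 0.60) at 30 min (adjusted p = 0.0104). Relative to the median of all genes the 30 min change was -3.17, and 0.483% of genes had a lower one. The 15 min call was lost without either 0 min library or without replicate 1 of 15 min (-2.92 to -2.19), and the 30 min call without replicate 2 of 0 min (-2.42) or replicate 1 of 30 min (-2.04). Between successive harvests after 5 min HAK1 was not called, at -0.42 (SE 0.60) and -0.21 (SE 0.60), with adjusted p of 0.753 and 0.832 in limma. Both of these small changes turned positive when 1 library was left out, up to 0.24 and 0.53.

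In H. burtonii, HAK1 rose by 2.80 (SE 0.27) at 5 min (adjusted p = 0.00101, limma), a change above that of 99.3% of genes and of 2.73 relative to their median. The rise at 15 min was 1.23 (SE 0.27, adjusted p = 0.0143), and the change at 30 min was 0.33 (SE 0.27) and not called (adjusted p = 0.341). The level then came down: HAK1 fell by 1.57 (SE 0.27) at 15 min against 5 min (adjusted p = 0.00978), where 1.14% of genes had a lower change. For 30 against 15 min the change was -0.90 (SE 0.27), which just missed the threshold (adjusted p = 0.0594), and with median-ratio or quantile scaling it was called (-1.04 and -1.001). The 5 min rise held in 16 of 16 alternatives, between 2.30 and 3.08. The 15 min rise was lost with quantile scaling (0.75) and without replicate 2 of 15 min (1.16), and the fall after 5 min without replicate 1 of 5 min (-1.28) or of 15 min (-1.50). The 30 min change turned negative with median-ratio scaling (-0.16) and quantile scaling (-0.25).

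Before the addition HAK1 stood above 82.9% and 88.9% of genes in the H. pseudoburtonii libraries and above 34.9% and 41.9% in those of H. burtonii. At 5 min it stood above 36.5% and 67.8% of genes in H. pseudoburtonii and above 84.1% and 78.7% in H. burtonii. At 30 min the shares were 16.8% and 45.4% in H. pseudoburtonii and 34.4% and 32.3% in H. burtonii. The rank of HAK1 at 0 min in H. pseudoburtonii was therefore close to its rank at 5 min in H. burtonii, though the tables were normalized separately and levels between species were not tested.

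TRK1 is missing by name from both tables, and TRK2, its partner gene in S. cerevisiae, was found once in each. In H. pseudoburtonii, TRK2 had 18.1 and 13.8 FPKM at 0 min, 22.3 and 20.3 at 5 min, 10.4 and 14.8 at 15 min, and 26.4 and 27.7 at 30 min. Its changes of 0.41, -0.32 and 0.74 against 0 min were not called (adjusted p = 0.454, 0.512 and 0.0932, limma), and the last was -0.01 with quantile scaling. In H. burtonii, TRK2 was low, with 1.66 and 1.90 FPKM at 0 min, 4.58 and 3.35 at 5 min, 5.45 and 7.54 at 15 min, and 10.1 and 8.18 at 30 min. Later libraries there were all above the 0 min libraries, whose values lay near the filter of 1 FPKM. The size of its changes moved with the processing: that of 30 min against 0 min ran from 0.70 to 2.30 over the alternatives. The change of 0.83 (SE 0.30) at 5 min was not called (adjusted p = 0.0840), and TRK2 rose by 1.42 (SE 0.30) at 15 min (adjusted p = 0.0125) and by 1.86 (SE 0.30) at 30 min (adjusted p = 0.00214). The 15 min call was lost with quantile scaling (0.64) and without replicate 2 of 15 min (1.22).

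A further gene of possible bearing on potassium, chosen after its values were seen, is annotated as a potassium-transporting ATPase alpha chain 2 and named Atp12a or ATP12A in the files. In H. burtonii, Atp12a had 4.58 and 7.81 FPKM at 0 min, 18.5 and 17.4 at 5 min, 3.05 and 5.02 at 15 min, and 1.85 and 1.56 at 30 min. As with HAK1, the 5 min libraries were the highest. Unlike with HAK1, the 30 min libraries were below all others. Atp12a rose by 1.43 (SE 0.34) at 5 min (adjusted p = 0.0237, limma) and fell by 1.38 (SE 0.34) at 30 min against 0 min (adjusted p = 0.0123). The first call was lost without replicate 1 of 0 min (1.10) or either 5 min library (1.39 and 1.48), and the second without replicate 2 of 30 min (-1.30). In H. pseudoburtonii, ATP12A had 9.80 and 10.04 FPKM at 0 min, 11.8 and 7.78 at 5 min, 18.1 and 7.45 at 15 min, and 5.83 and 7.29 at 30 min, and was not called. Its changes there were -0.04, 0.22 and -0.54, of which the first 2 turned sign when 1 library was left out and the last was called with quantile scaling (-1.54).

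PMA1, the proton pump, was by far the most abundant of the 3 genes in each of the 16 libraries and, against 0 min, was called only in H. burtonii at 30 min. In H. pseudoburtonii, PMA1 had 1456 and 1483 FPKM at 0 min, 1788 and 1465 at 5 min, 1977 and 1847 at 15 min, and 1643 and 1664 at 30 min. The 15 and 30 min libraries lay above those of 0 min and the 5 min libraries overlapped with them, over a narrow range of levels. In H. burtonii, PMA1 had 363 and 318 FPKM at 0 min, 488 and 430 at 5 min, 462 and 373 at 15 min, and 970 and 751 at 30 min. The 30 min libraries stood above the rest, and the earlier times lay closer together.

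The log2 changes of PMA1 in H. pseudoburtonii were 0.14, 0.38 and 0.17 (SE 0.14 each) at 5, 15 and 30 min, with adjusted p of 0.600, 0.115 and 0.391 in limma. The 95% confidence intervals reached from -0.20 to 0.47, 0.04 to 0.71 and -0.16 to 0.50. The 15 min change was called with quantile scaling (0.65), and the 30 min change turned to -0.23 with median-ratio scaling. In H. burtonii the changes were 0.43 (SE 0.20) at 5 min and 0.29 (SE 0.20) at 15 min, neither called (adjusted p = 0.144 and 0.289). PMA1 rose there by 1.33 (SE 0.20) at 30 min (adjusted p = 0.00140), 2.53 times by the means and 0.77 relative to the median of all genes. This change lay above that of 81.1% of genes. That call held in 16 of 16 alternatives, between 0.81 and 1.51. PMA1 rose in H. burtonii also at 30 against 15 min, by 1.04 (SE 0.20, adjusted p = 0.0132), a call lost without replicate 2 of 15 min (0.88) or replicate 1 of 30 min (0.85).

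PMA1 stood above 97.0% to 97.9% of genes in the H. pseudoburtonii libraries and above 90.6% to 95.4% in those of H. burtonii. The order below it changed with time. In H. pseudoburtonii HAK1 had more FPKM than NHA1 in both 0 min libraries, the 2 genes overlapped at 5 and 15 min, and NHA1 was higher in both libraries at 30 min. In H. burtonii the 2 genes overlapped at 0 min, HAK1 was higher in both libraries at 5 min, they overlapped at 15 min, and NHA1 was higher at 30 min. HAK1 stood at 10.95% and 17.6% of the PMA1 level at 0 min in H. pseudoburtonii and at 1.03% and 2.94% at 30 min. In H. burtonii it stood at 3.74% and 6.43% of PMA1 at 0 min, 30.5% and 23.3% at 5 min, and 2.29% and 2.69% at 30 min. NHA1 stood at 3.33% and 4.12% of PMA1 at 30 min in H. pseudoburtonii, and at 8.53% and 9.59% in H. burtonii. These are ratios of FPKM, which is per length, between genes of 1 library.

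**Figure D2:**
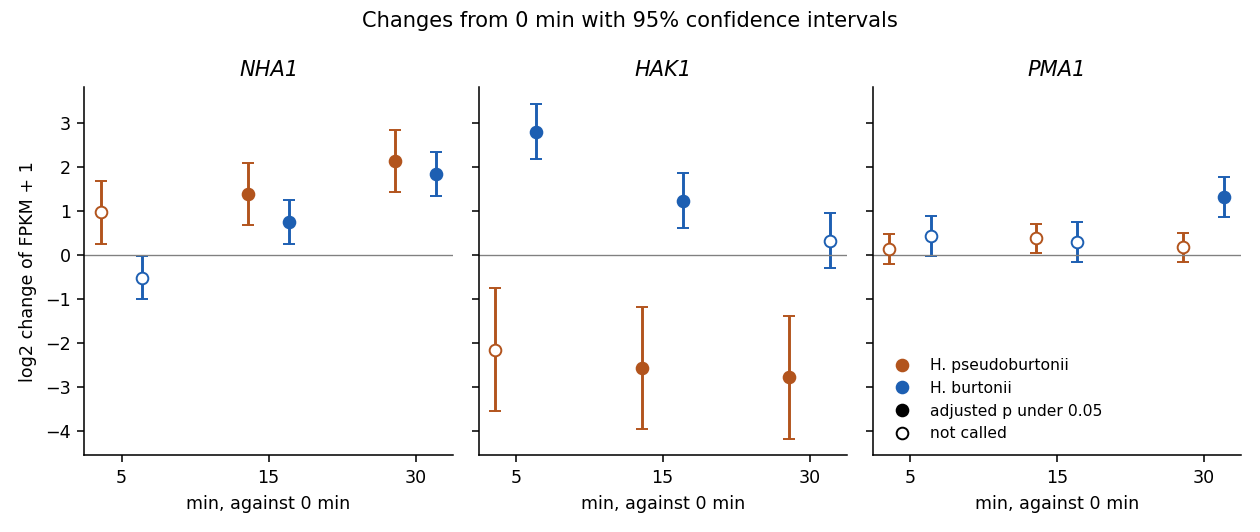
Log2 change of FPKM + 1 against 0 min (vertical axis) at 5, 15 and 30 min for NHA1, HAK1 and PMA1, in H. pseudoburtonii (brown, left of each pair) and H. burtonii (blue), with 95% confidence intervals. Filled points passed an adjusted p of 0.05: the HAK1 changes lie on opposite sides of 0 at 5 and 15 min, those of NHA1 come together by 30 min, and PMA1 passes at 30 min in H. burtonii alone among these points.

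The species difference, H. pseudoburtonii's change less H. burtonii's, was tested by limma over 3399 genes paired between them, and the 3 genes were paired by Swiss-Prot accession. Each species is 1 strain in its own series of libraries, so such a difference is one between strains as much as between species. At 5 min 2 of 3 members differed, against 15.5% of all pairs, at 15 min 1 of 3, against 20.8%, and at 30 min 2 of 3, against 36.1%. HAK1 differed at each time. The difference was -4.95 (SE 0.72) at 5 min (adjusted p = 0.000870), -3.80 (SE 0.72) at 15 min (adjusted p = 0.00374) and -3.10 (SE 0.72) at 30 min (adjusted p = 0.00537). At 5 min 0.235% of pairs had a lower difference. The HAK1 differences held in 24 of 24 alternatives at each of the 3 times, but their size moved with single H. pseudoburtonii libraries. The 5 min value was -4.30 without replicate 1 and -5.61 without replicate 2 of 5 min, and the 30 min value was -2.36 without replicate 1 and -3.84 without replicate 2 of 30 min. At 15 min the values with 1 library left out ran from -4.18 to -3.42.

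For NHA1 the difference was 1.48 (SE 0.36) at 5 min (adjusted p = 0.0170, limma). It was 0.64 at 15 min (95% confidence interval -0.15 to 1.42, adjusted p = 0.230) and 0.29 at 30 min (-0.49 to 1.08, adjusted p = 0.555), neither of which passed. The 5 min call was lost without replicate 2 of 5 min in H. burtonii (1.42) and without replicate 1 of 0 min in H. pseudoburtonii (1.44). For PMA1 the difference was -0.29 at 5 min (-0.84 to 0.26, adjusted p = 0.454) and 0.09 at 15 min (-0.46 to 0.64, adjusted p = 0.821), and both turned sign in some alternatives. At 30 min it was -1.16 (SE 0.25, adjusted p = 0.00393), and this held in 24 of 24 alternatives. Relative to the median of all pairs this difference was -0.87, and 23.45% of pairs had a lower one. TRK2 differed by -0.42 at 5 min (adjusted p = 0.504), by -1.74 (SE 0.41) at 15 min (adjusted p = 0.0111) and by -1.12 (SE 0.41) at 30 min (adjusted p = 0.0473). The last held in 11 of 23 alternatives, and the 15 min call was lost without replicate 1 of 0 min in H. pseudoburtonii (-1.56).

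Positions are those of the files, whose genome build the sources used here do not give. In H. pseudoburtonii, NHA1 (TBIG001532) lies on chromosome 2 at 852312 to 855491 on the plus strand. PMA1 (TBIG003399) lies on chromosome 4 at 1359231 to 1361924 and HAK1 (TBIG004683) on chromosome 6 at 721401 to 723938, both on the minus strand. In H. burtonii all 3 are on the minus strand, HAK1 (TBIG000238) on chromosome 1 at 472662 to 474940, NHA1 (TBIG001031) on chromosome 1 at 2063571 to 2066282, and PMA1 (TBIG004184) on chromosome 5 at 358835 to 361525. The annotated spans were 3180 bases in H. pseudoburtonii and 2712 in H. burtonii for NHA1, 2538 and 2279 for HAK1, and 2694 and 2691 for PMA1. No other annotated gene overlapped any of the 6.

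Among the 5 genes on each side, 7 names were shared between the species around HAK1, 7 around NHA1 and 5 around PMA1. Upstream of HAK1, and on the opposite strand, the next gene in both species was CTF4, which acts in DNA replication in S. cerevisiae. CTF4 was not called against 0 min in either species. Its changes at 5, 15 and 30 min were 0.44, 0.19 and 0.15 in H. pseudoburtonii and 0.14, -0.39 and 0.32 in H. burtonii, and all but the first and the -0.39 changed sign in an alternative. Of the shared names further away, ANT1, a peroxisomal carrier 4 places downstream, rose in H. burtonii by 1.63 at 5 min (adjusted p = 0.0197, limma) and by 1.69 at 15 min (adjusted p = 0.0126). In H. pseudoburtonii the change of ANT1 was 1.05 at 5 min and not called (adjusted p = 0.0543), and it rose by 2.24 at 15 min (adjusted p = 0.00199). The H. burtonii calls were lost with quantile scaling (1.24 and 0.89), the first also without either 5 min library (1.77 and 1.49) and the second without replicate 2 of 15 min (1.40). DOG2, 4 places upstream, fell in H. burtonii by 0.93 at 5 min (adjusted p = 0.0357). That call held in 10 of 16 alternatives. Among others, it was lost without replicate 1 of 0 min or any 1 library of 5 or 30 min (-1.01 to -0.78). In H. pseudoburtonii DOG2 rose by 2.39 at 30 min (adjusted p = 0.00487).

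Upstream of NHA1 in both species lie CHAC_YEAST and then KRE6, a gene of beta-glucan synthesis, both on the opposite strand. KRE6 fell in H. pseudoburtonii by 1.63, 1.45 and 1.57 at 5, 15 and 30 min (adjusted p = 0.0115, 0.00997 and 0.00380, limma). In H. burtonii it rose by 0.89, 1.45 and 1.00 at the same times (adjusted p = 0.0243, 0.00319 and 0.00685). In H. pseudoburtonii its 5 and 15 min calls were lost without either 0 min library and the first also without replicate 2 of 5 min (-1.64 to -1.44). In H. burtonii its 5 min call was lost without replicate 1 of 0 min or either 5 min library (0.77 to 0.99), and its 30 min call with median-ratio and quantile scaling (0.50 and 0.52). CHAC_YEAST rose at 30 min in H. pseudoburtonii, by 1.48 (adjusted p = 0.00525), and its change in H. burtonii was -0.17 and not called (adjusted p = 0.555). Downstream, the next gene in both species was car2, on the opposite strand. It rose in H. pseudoburtonii by 1.78 at 15 min and 2.90 at 30 min (adjusted p = 0.00128 and 7.4e-05, limma). In H. burtonii both its rows rose at 15 min, by 1.13 and 1.16 (adjusted p = 0.0176 and 0.00222). The first call held in 13 of 16 alternatives. Their 30 min changes of 0.56 and 0.17 were not called. ECM7, further downstream, rose at 30 min by 1.49 in H. pseudoburtonii and 1.24 in H. burtonii (adjusted p = 0.00360 and 0.00420). SMA2 beyond it fell in H. burtonii by 2.80 at 30 min (adjusted p = 0.00391) and was not called in H. pseudoburtonii (0.65). Before PMA1 the next gene in both species was CHS2, a chitin synthase on the same strand. CHS2 fell in H. pseudoburtonii at 30 min by 1.25 (adjusted p = 0.00437), and its calls at 5 and 15 min held in 7 and 8 of 16 alternatives. In H. burtonii its 30 min change of 0.76 was not called (adjusted p = 0.136). Downstream of PMA1 both YOR22_YEAST rows of H. burtonii rose at 30 min, by 1.47 and 1.48 (adjusted p = 0.00471 and 0.00183). The YOR22_YEAST row of H. pseudoburtonii changed by 1.03 and was not called (adjusted p = 0.0651). Neighbours were taken by place and named after their values were seen, and their species differences are not given here.

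**Figure D3:**
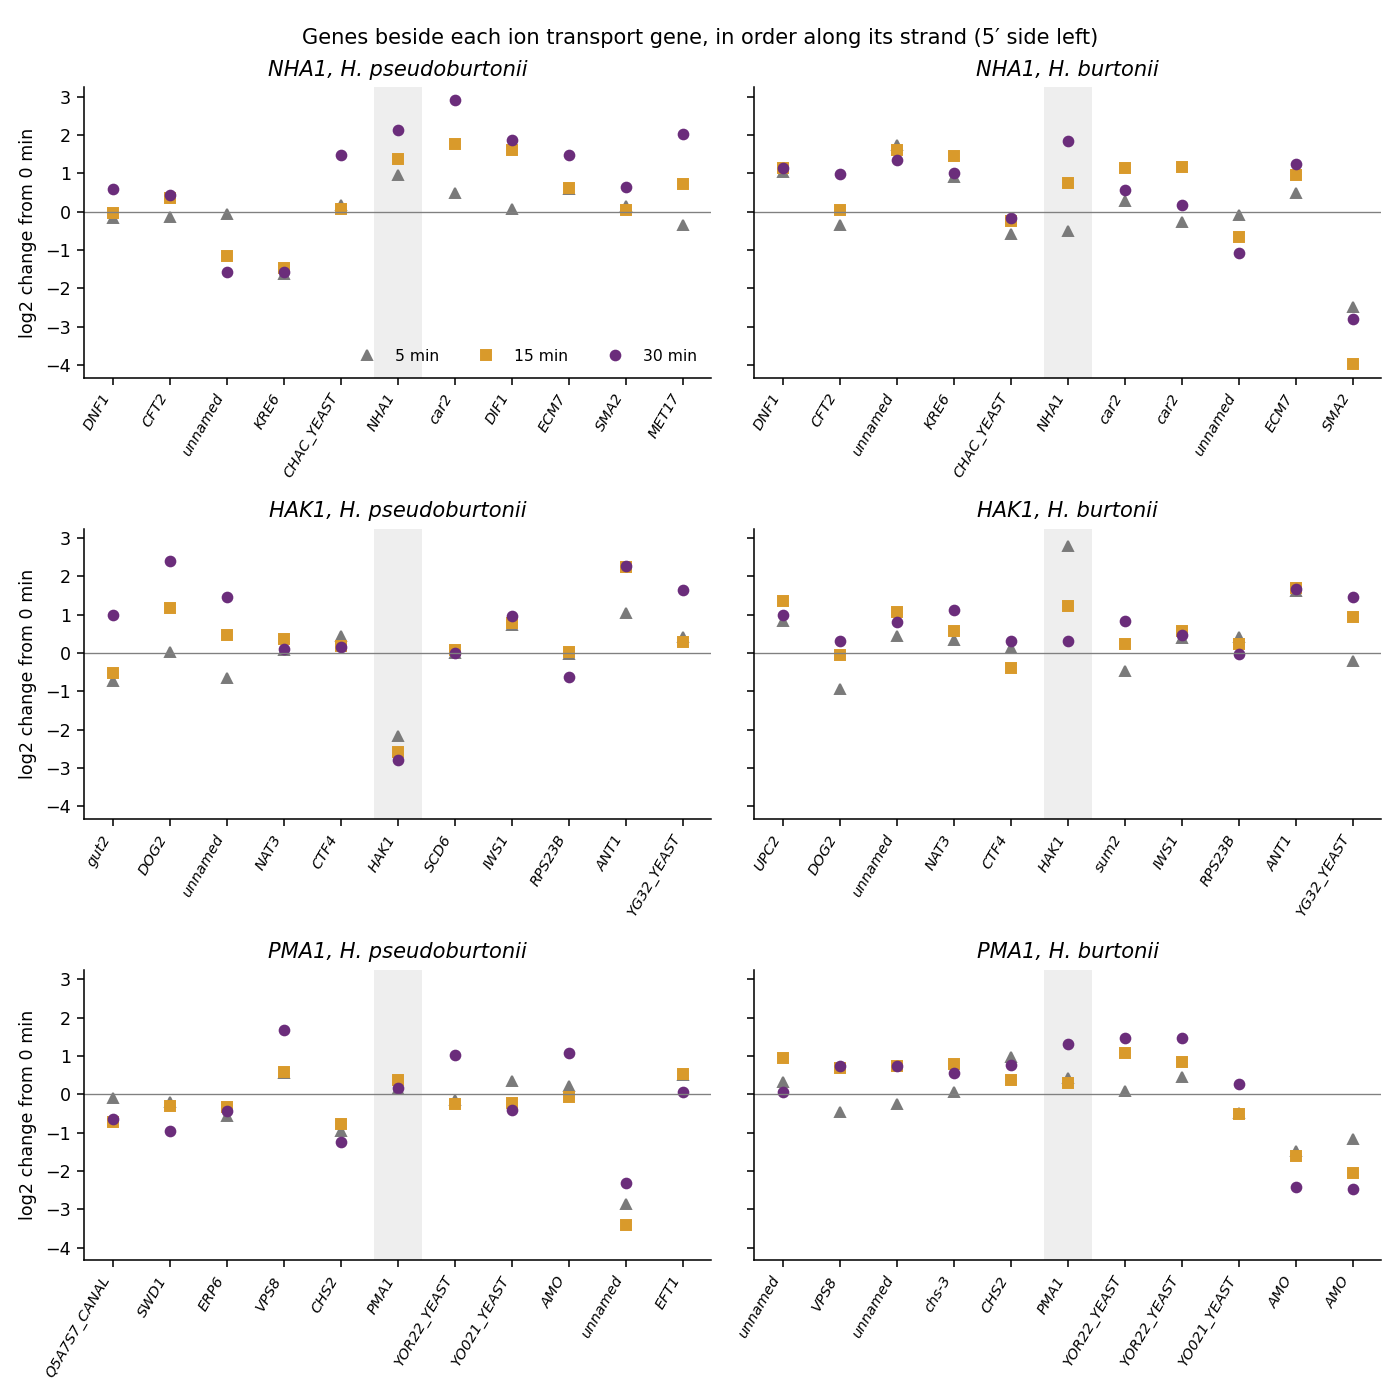
Log2 change against 0 min at 5, 15 and 30 min of the 5 annotated genes on each side of NHA1, HAK1 and PMA1 (grey band), ordered along the strand of the central gene, with H. pseudoburtonii on the left and H. burtonii on the right. HAK1 lies away from its neighbours at 5 min in both species, at -2.15 in H. pseudoburtonii and 2.80 in H. burtonii.

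The genes whose course over the 8 libraries was most like that of a member were found by the root mean square difference of centred log2 values, among 4370 genes in H. pseudoburtonii and 4259 in H. burtonii. HAK1 in H. burtonii was closest to RCN1, annotated as a calcipressin-like protein (0.209), then to the hexose transporter gene KHT2 (0.391) and to YMN1_YEAST (0.396). For HAK1 in H. pseudoburtonii, RCF2 of the respiratory chain was at 0.494, the ceramide hydroxylase gene SCS7 at 0.561 and the thiamine pathway gene THI20 at 0.580. These differences run over single libraries and so include the gap between the 2 libraries of a time. For HAK1 in H. pseudoburtonii that gap was 1.63 to 2.90 times, so the larger values there need not mean an unlike time course. NHA1 was closest to TFG1 (0.165), SSL2 (0.177) and OTC (0.183) in H. pseudoburtonii, and to CDS1 (0.118), UTR1 (0.132) and SUP35 (0.134) in H. burtonii. PMA1 was closest to YB2G_SCHPO (0.0749), the mitochondrial ATP synthase gene ATP2 (0.0775) and the ceramide synthase gene LAC1 (0.0860) in H. pseudoburtonii. In H. burtonii it was closest to the translation factor genes TIF34 (0.153) and GCD7 (0.156) and to ATP12 (0.168). No gene was among the 3 most alike of the same member in both species. Lists of 3 out of 4370 and 4259 genes leave little room for overlap, so nothing is read from this.

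Other genes of monovalent cation and proton transport and their regulators were taken from a list of 40 names, of which 18 were found in H. pseudoburtonii (21 genes, all tested) and 20 in H. burtonii (27 genes, 26 tested). In H. pseudoburtonii, 1 gene rose and 1 fell at 5 min, 2 rose and 1 fell at 15 min, and 9 rose and 1 fell at 30 min. Of all genes tested, 8.73%, 17.7% and 35.4% were called at these times in either direction. The list's median change at 30 min was 0.98, against 0.39 for all genes. In H. burtonii, 5 rose and 2 fell at 5 min, 8 rose and 1 fell at 15 min, and 9 rose and 2 fell at 30 min, with a 30 min median of 0.66, against 0.56 for all genes. Among all genes of H. burtonii 22.3%, 29.7% and 48.1% were called, and with lists of 21 and 26 genes nothing is read from the counts beyond these shares. With median-ratio scaling the 30 min counts were 7 higher and 3 lower in H. pseudoburtonii and 6 higher and 5 lower in H. burtonii. Between successive harvests, 0 genes of the list were called in limma at 15 against 5 min (6 had an unadjusted p under 0.05) and 5 rose at 30 against 15 min in H. pseudoburtonii, where 4.78% and 14.3% of all genes were called. In H. burtonii, 7 rose and 1 fell in the first of these steps and 2 rose in the second, against 20.1% and 16.2% of all genes.

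Some of these genes are themselves ion transporters, and others are listed as regulators. At 30 min KHA1, an intracellular potassium and proton antiporter, rose in H. pseudoburtonii by 2.00 (SE 0.34, adjusted p = 0.00429, limma). PPZ1, a phosphatase that restrains potassium uptake and sodium export in S. cerevisiae, rose there by 1.38 (SE 0.19, adjusted p = 0.00182). PHO89, a cotransporter of sodium and phosphate, rose there by 3.99 (SE 0.61, adjusted p = 0.00273), with an alternative range of 1.52 to 6.14. These 3 calls held in 16 of 16 alternatives. The same genes were not called at 30 min in H. burtonii, with changes of -1.02 for KHA1 (adjusted p = 0.169), 0.31 for PPZ1 (adjusted p = 0.164) and 0.62 for PHO89 (adjusted p = 0.216), and the species differences of these 3 genes are not given here. YCK2, a plasma membrane casein kinase, rose at 30 min in 1 of 2 rows in each species. The change was 1.36 (SE 0.23, adjusted p = 0.00385) for TBIG005535 of H. pseudoburtonii and 2.51 (SE 0.32, adjusted p = 0.000696) for TBIG004234 of H. burtonii.

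HRK1, a kinase that activates Pma1 in S. cerevisiae, fell in H. pseudoburtonii by 1.40 (SE 0.34, adjusted p = 0.0461, limma) at 5 min, a call that held in 7 of 16 alternatives and was lost without any 1 library of 0, 5 or 30 min (-1.52 to -1.28). At 15 min HRK1 fell by 1.29 (SE 0.34, adjusted p = 0.0391), a call that held in 9 of 16 and was lost without either 0 min library, replicate 1 of 15 min or either 30 min library (-1.31 to -0.80). AST1, which acts in the sorting of Pma1 in S. cerevisiae, fell in H. burtonii by 0.67 (SE 0.17, adjusted p = 0.0288) at 5 min. That call held in 9 of 16 alternatives. Among others, it was lost with quantile scaling (-0.52) and without replicate 1 of 0 min or any 1 library of 5 or 30 min (-0.72 to -0.62). PTK1, a kinase of ion transport, rose at 30 min in H. pseudoburtonii by 1.01 (SE 0.27, adjusted p = 0.0238) and fell in H. burtonii by 0.98 (SE 0.30, adjusted p = 0.0285). In H. pseudoburtonii that call was lost with median-ratio and quantile scaling (0.62 and 0.43) and without any 1 library of 0 or 30 min (0.87 to 1.16). In H. burtonii it was lost without replicate 2 of 0 min or any 1 library of 5 or 30 min (-1.07 to -0.72). NHX1, the endosomal exchanger of sodium and protons, fell in H. burtonii by 0.67 (SE 0.18) at 30 min (adjusted p = 0.0192). That call was lost without replicate 1 of 0 min (-0.49) and without either 30 min library (-0.63 and -0.71).

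Other listed genes were called in both species or in 1. SKY1, a kinase of cation tolerance, rose at 30 min in H. pseudoburtonii by 1.46 (SE 0.48, adjusted p = 0.0471, limma) and in H. burtonii by 1.27 (SE 0.24, adjusted p = 0.00414). The first held in 5 of 16 alternatives. Among others, it was lost with either scaling (1.07 and 0.74) and without any 1 library of 0, 5 or 30 min (1.34 to 1.58). The second was lost with quantile scaling (0.70). VCX1, the vacuolar exchanger of calcium and protons, fell at 30 min in H. pseudoburtonii by 0.69 (SE 0.21, adjusted p = 0.0395) and rose in H. burtonii by 0.97 (SE 0.16, adjusted p = 0.00251). The fall held in 10 of 16 alternatives and was lost, among others, without any 1 library of 0 or 30 min (-0.81 to -0.56). The rise was lost with median-ratio scaling (0.46). HAL9, a transcription factor of salt tolerance in S. cerevisiae, rose at 30 min in 1 of 2 rows in H. pseudoburtonii (1.40, adjusted p = 0.0148) and 1 of 3 in H. burtonii (0.70, adjusted p = 0.0251). These calls held in 11 and 10 of 16 alternatives. SIS2, an inhibitor of the phosphatase Ppz1, rose in H. burtonii by 0.71 at 30 min (adjusted p = 0.0452), which held in 7 of 16. At 5 min in H. burtonii, SAT4, a kinase of potassium uptake, rose in 1 of 2 rows by 0.78 (adjusted p = 0.0484; 9 of 16), and CNB1, the regulatory subunit of calcineurin, fell by 0.73 (adjusted p = 0.0179; 14 of 16). The HAL9, SIS2, SAT4 and CNB1 calls were each lost without some single library.

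**Figure D4:**
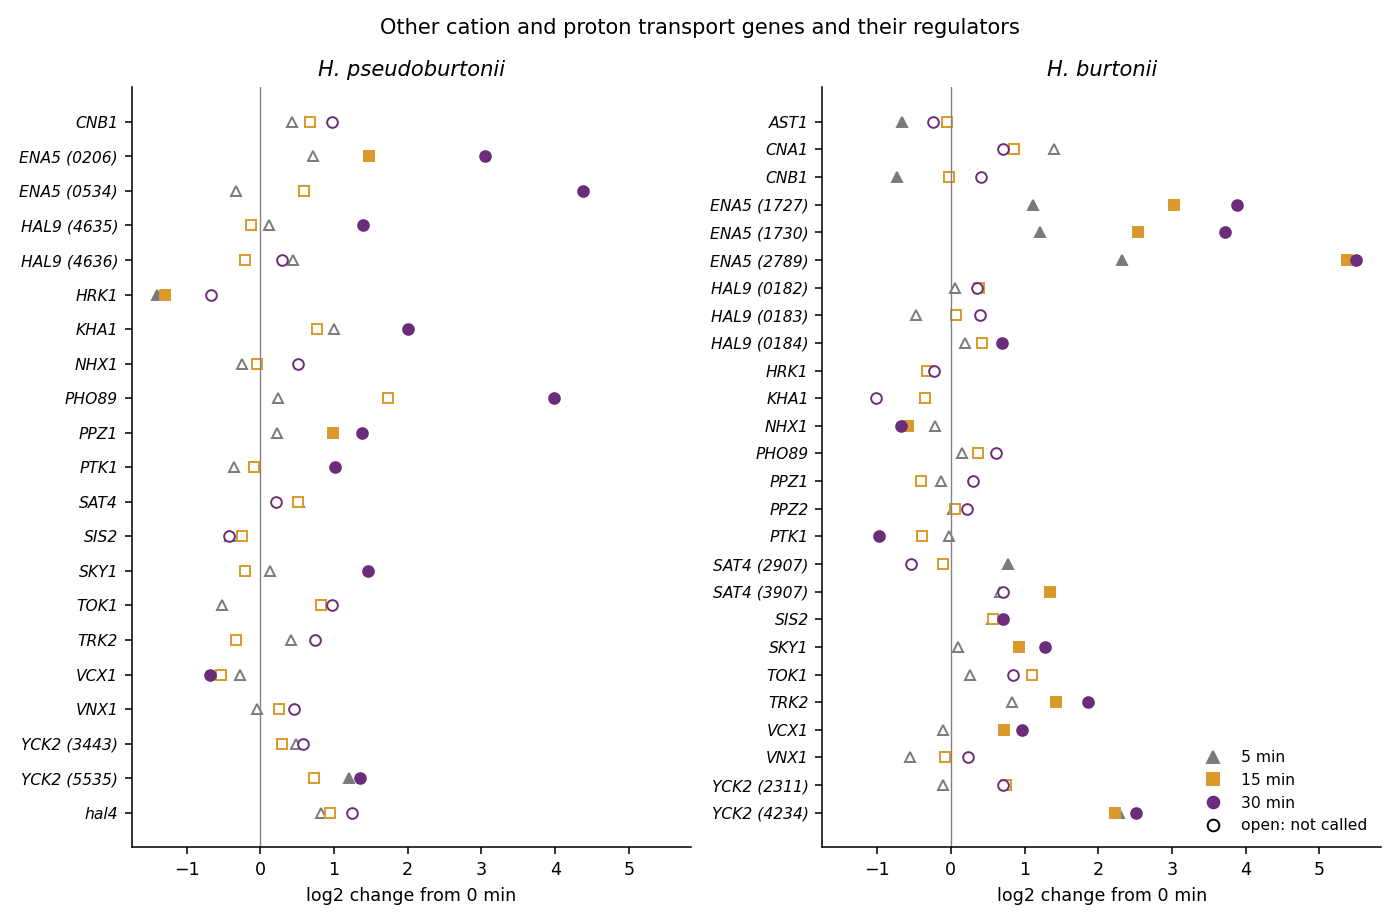
Log2 change against 0 min (horizontal axis) at 5, 15 and 30 min of listed genes of cation and proton transport and of their regulators, with H. pseudoburtonii on the left and H. burtonii on the right. Filled symbols passed an adjusted p of 0.05, names that recur carry the last 4 digits of the gene identifier, and the ENA5 rows reach the highest values, up to 5.49 in H. burtonii.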

How the data were processed

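The authors deposited FPKM in 1 table of genes per species, with 8 libraries each. Per the submitters' processing notes, the tools were TopHat2 2.1.1, Cufflinks 2.2.1, CASAVA 1.8.2 and FastQC 0.11.8. Their order, their settings, the genome build and the source of the gene models were not given in the sources used here. FPKM were turned into log2(FPKM + 1), and fold changes on that scale understate changes of low genes. Genes with at least 1 FPKM in at least 2 of 8 libraries were kept, 5798 in H. pseudoburtonii and 6047 in H. burtonii.

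Each species had its own limma fit (limma 3.58.1 in R 4.3.3) with 4 groups, the harvest times, and an intensity-dependent prior variance, and p-values were adjusted by the Benjamini-Hochberg method over all tested genes, with a threshold of 0.05. The species difference was an interaction contrast over 3399 of 3415 pairs of genes, 3235 paired by Swiss-Prot accession and 180 by name. The fits were tested on simulated data. With 2 libraries a group, an exact two-sided permutation test of single values cannot go below p = 0.333 and was not run. Tables and figures were made with matplotlib 3.10.9, numpy 2.4.6 and pandas 2.3.3 under Python 3.11.15.

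The members, the list of 40 names and the tests were chosen with earlier results of these data known. Genes were named by a rule: each row of a member name, up to 8 called genes of the list per comparison, ACT1, and for each member the 3 most alike genes of at least 10 FPKM on average. Which called genes of the list are described, and at which times, was a choice made after their values were seen. Atp12a and the neighbouring genes stand outside the rule. The alternatives changed the scaling (median-ratio or quantile), the pseudocount (0.1 or 10), the filter (none, or 10 FPKM) or the prior (without trend), added a replicate block, or left out 1 library.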

Additional observations from a re-analysis of the deposited data

Results flagged for a closer look

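For 5 results the changes from 0 min differed between the species by a test of the difference itself, with H. burtonii's change taken from H. pseudoburtonii's. HAK1 differed by -4.95 at 5 min, -3.80 at 15 min and -3.10 at 30 min. NHA1 differed by 1.48 at 5 min, where its libraries were above those of 0 min in H. pseudoburtonii and below them in H. burtonii. PMA1 differed by -1.16 at 30 min. In HAK1 the levels at 0 min were also far apart, with 159.5 and 260.7 FPKM in H. pseudoburtonii and 13.6 and 20.5 FPKM in H. burtonii. Groups of 2 libraries are too small to be examined for a library far from the rest.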

How the results depend on the processing

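The rise of HAK1 at 5 min and of PMA1 at 30 min in H. burtonii, the 30 min rise of NHA1 in both species, the HAK1 species differences and the 30 min PMA1 difference kept their direction and call in all alternatives run. For the other member results the cause of a change was not tested. With a pseudocount of 10 the 5 min change of HAK1 in H. pseudoburtonii was called (-1.94). With median-ratio scaling, in H. burtonii, NHA1 at 15 min (0.39) lost its call, PMA1 at 15 min (-0.0747) and HAK1 at 30 min (-0.16) turned negative, and HAK1 at 30 against 15 min (-1.04) was called; in H. pseudoburtonii PMA1 at 30 min turned to -0.23. With quantile scaling, in H. burtonii, HAK1 (0.75) and NHA1 (0.28) lost their calls at 15 min, HAK1 at 30 min turned to -0.25 and HAK1 at 30 against 15 min (-1.001) was called. Quantile scaling also brought a call of PMA1 at 15 min in H. pseudoburtonii (0.65) and turned the 5 min species difference of PMA1 to 0.0035. Among other genes it turned ATP12A at 15 min (-0.0939) and TRK2 at 30 min (-0.0126) in H. pseudoburtonii and CTF4 at 5 min in H. burtonii (-0.16), and a pseudocount of 10 turned the 5 min species difference of TRK2 to 0.0336.

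Leaving out 1 library at a time changed a call or a direction of the following member results. In H. pseudoburtonii, the ranges were -0.0048 to 0.28 for PMA1 at 5 min, 1.09 to 1.67 for NHA1 and -2.95 to -2.19 for HAK1 at 15 min, and -3.52 to -2.04 for HAK1 at 30 min. For HAK1 they were -1.07 to 0.24 at 15 against 5 min and -0.95 to 0.53 at 30 against 15 min. In H. burtonii, they were 0.95 to 1.51 for HAK1 and 0.58 to 0.91 for NHA1 at 15 min. At 15 against 5 min they were -1.85 to -1.28 for HAK1, 1.09 to 1.42 for NHA1 and -0.29 to 0.0136 for PMA1. At 30 against 15 min they were -0.97 to -0.83 for HAK1, 0.93 to 1.26 for NHA1 and 0.85 to 1.22 for PMA1. Between the species they were 1.23 to 1.72 for NHA1 at 5 min and -0.0636 to 0.24 for PMA1 at 15 min. For ATP12A in H. pseudoburtonii they were -0.31 to 0.23 at 5 min and -0.37 to 0.80 at 15 min.

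The labels give replicate numbers and no shared source. Deviations of same-numbered libraries correlated with r of -0.0917 to 0.038 in H. pseudoburtonii. In H. burtonii r was 0.162, 0.459 and 0.165 among 0, 5 and 15 min and -0.164 to 0.0145 with 30 min, so a shared source of some of these libraries cannot be told from the data, and the numbers were not treated as pairs. With the replicate block the 5 min change of HAK1 in H. pseudoburtonii (-2.15), where replicate 2 was higher at each time, had an SE of 0.27, against 0.60 without it, and was called. No other call of a member changed.

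The number of all genes called, to which the members' counts were set, moved with single libraries. In H. pseudoburtonii the ranges over alternatives were 94 to 665 at 5 min (506 as reported), 255 to 1164 at 15 min (1026), 897 to 2368 at 30 min (2055), 81 to 351 at 15 against 5 min (277) and 0 to 1155 at 30 against 15 min (831). The 0 came in limma without either 30 min library, where 1372 and 1283 genes had an unadjusted p under 0.05. In H. burtonii they were 178 to 1649 at 5 min (1348), 908 to 2024 at 15 min (1798), 1783 to 3015 at 30 min (2907), 120 to 1588 at 15 against 5 min (1214) and 240 to 1239 at 30 against 15 min (981). Between the species they were 247 to 677 at 5 min (528), 407 to 787 at 15 min (707) and 885 to 1314 at 30 min (1227).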
